A study of Mus musculus with 22 samples.

Results

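The regions described here are 656 sites in mouse regulatory T cells (Treg cells) at which the transcription factor NFAT1 was found in wild-type (WT) cells and not in IkE5 cells, while the coactivator p300 was found in both genotypes. They were chosen from peak lists of chromatin immunoprecipitation sequencing (ChIP-seq). The 4 NFAT1 lists and, apart, the 4 p300 lists were joined into regions where peaks shared 1 bp or more. An NFAT1 region was taken when both WT and neither IkE5 NFAT1 list had a peak and when it overlapped a p300 region with a peak in all 4 p300 lists. This gave 656 of 11087 NFAT1 regions in all, on 656 of the 4239 p300 regions present in all 4 lists.

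The cells were primary Treg cells from spleen and lymph nodes, which in both genotypes received Cell Stimulation Cocktail for 1 h before being fixed with 1% formaldehyde. Fixation lasted 5 min for the H3K27ac libraries and 30 min for those of NFAT1, p300, Foxp3 and Ikaros. One genotype carries the label IkE5-deletion, and the other is labelled WT. How the deletion is made, in which cells it acts and how old the mice were is not stated in the labels, and nothing says that the 2 libraries per genotype and target came from separate animals. Ikaros was mapped in WT cells only, and 4 input samples are not analysed here.

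NFAT1, the product of Nfatc2, stays in the cytoplasm of resting T cells until calcium signals activate the phosphatase calcineurin, which sends it into the nucleus. There it binds a short GGAAA core, often beside AP-1 or, in Treg cells, beside Foxp3, the factor that defines the lineage. The acetyltransferase p300 is recruited by many factors to active enhancers and promoters and acetylates histone H3 at lysine 27 (H3K27ac), and Ikaros, encoded by Ikzf1, is a zinc finger factor that recruits corepressors as well as activators.

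The printed promoters are 5 at lost sites and 5 at kept sites, each with at least 150 bp of overlap with the site. The sites lay near genes of the lists described further on or, for lost sites, also near genes with 3 or more lost sites. They show where the NFAT motif lies or is missing. Promoters of genes named for other reasons, such as Xrn2, are not printed. The sequences are from RefSeq on GRCm38.p6 and run 5′ to 3′ in the direction of the gene, from 250 bases before to 50 after its start. Capitals mark GGAAAA or its reverse complement, the longer form of the core that was searched; the shorter GGAAA was not counted. At lost sites, Batf (chr12:85686470-85686769, plus strand) is an AP-1 family gene. Cr1l (chr1:195131521-195131820, minus strand) encodes a regulator of complement. Runx1 (chr16:92826025-92826324, minus strand) encodes a DNA-binding partner of Foxp3. Trap1 (chr16:4077761-4078060, minus strand) is a mitochondrial chaperone gene that neighbours Crebbp, the gene of the p300 relative CBP. Prkag1 (chr15:98831459-98831758, minus strand) encodes a subunit of the kinase AMPK and overlaps a lost site at Kmt2d. At kept sites, Egr2 (chr10:67537316-67537615, plus strand) is an activation-induced zinc finger gene. Tnfaip3 (chr10:19015361-19015660, minus strand) encodes the NF-kappaB inhibitor A20. Tnfsf14 (chr17:57194132-57194431, minus strand) encodes a cytokine of the tumour necrosis factor family. Yju2 (chr17:55958937-55959236, plus strand) encodes a splicing factor and neighbours Ebi3. Zap70 (chr1:36761548-36761847, plus strand) is a kinase gene of T cell receptor signalling. The motif is present in Batf and Cr1l among the lost sites and in Egr2 and Zap70 among the kept sites, so these 10 promoters do not differ in it between the sets.
Batf: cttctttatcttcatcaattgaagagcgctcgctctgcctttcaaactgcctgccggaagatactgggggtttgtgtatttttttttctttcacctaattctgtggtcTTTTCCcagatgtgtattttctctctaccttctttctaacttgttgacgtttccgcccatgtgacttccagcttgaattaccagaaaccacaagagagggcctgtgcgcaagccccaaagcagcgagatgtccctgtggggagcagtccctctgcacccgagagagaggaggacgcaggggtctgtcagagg
Cr1l: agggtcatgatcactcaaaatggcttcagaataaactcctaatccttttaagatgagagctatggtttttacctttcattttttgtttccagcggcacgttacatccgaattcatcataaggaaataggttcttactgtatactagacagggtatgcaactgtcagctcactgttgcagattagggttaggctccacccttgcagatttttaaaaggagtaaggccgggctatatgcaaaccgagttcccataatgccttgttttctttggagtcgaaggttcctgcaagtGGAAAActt
Runx1: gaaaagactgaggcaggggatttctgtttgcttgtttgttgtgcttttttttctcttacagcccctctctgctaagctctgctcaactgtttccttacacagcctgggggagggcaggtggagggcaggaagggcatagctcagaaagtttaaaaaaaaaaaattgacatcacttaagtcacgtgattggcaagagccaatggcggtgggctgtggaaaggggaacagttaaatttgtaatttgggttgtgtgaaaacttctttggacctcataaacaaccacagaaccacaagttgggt
Trap1: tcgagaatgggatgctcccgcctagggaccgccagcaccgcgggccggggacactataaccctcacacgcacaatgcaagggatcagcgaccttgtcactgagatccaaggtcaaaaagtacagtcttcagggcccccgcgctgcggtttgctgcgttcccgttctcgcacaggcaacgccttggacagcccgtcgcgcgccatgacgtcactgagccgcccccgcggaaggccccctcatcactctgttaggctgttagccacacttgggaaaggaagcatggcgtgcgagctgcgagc
Prkag1: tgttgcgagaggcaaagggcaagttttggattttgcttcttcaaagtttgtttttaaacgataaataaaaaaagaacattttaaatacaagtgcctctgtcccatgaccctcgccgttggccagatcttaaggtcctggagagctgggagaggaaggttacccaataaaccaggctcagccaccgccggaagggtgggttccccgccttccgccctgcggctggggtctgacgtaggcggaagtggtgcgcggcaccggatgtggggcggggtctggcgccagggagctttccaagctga
Egr2: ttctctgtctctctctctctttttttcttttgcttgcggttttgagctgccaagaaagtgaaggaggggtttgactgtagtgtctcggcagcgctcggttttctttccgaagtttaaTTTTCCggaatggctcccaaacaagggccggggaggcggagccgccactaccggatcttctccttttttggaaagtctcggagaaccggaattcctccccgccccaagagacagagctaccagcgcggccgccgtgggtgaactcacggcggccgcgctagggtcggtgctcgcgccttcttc
Tnfaip3: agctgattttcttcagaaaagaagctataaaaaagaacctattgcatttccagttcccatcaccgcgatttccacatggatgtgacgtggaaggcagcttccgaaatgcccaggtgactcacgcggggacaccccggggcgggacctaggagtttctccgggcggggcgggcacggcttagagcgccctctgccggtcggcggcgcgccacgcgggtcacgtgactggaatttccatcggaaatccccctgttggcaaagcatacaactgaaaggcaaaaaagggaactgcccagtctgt
Tnfsf14: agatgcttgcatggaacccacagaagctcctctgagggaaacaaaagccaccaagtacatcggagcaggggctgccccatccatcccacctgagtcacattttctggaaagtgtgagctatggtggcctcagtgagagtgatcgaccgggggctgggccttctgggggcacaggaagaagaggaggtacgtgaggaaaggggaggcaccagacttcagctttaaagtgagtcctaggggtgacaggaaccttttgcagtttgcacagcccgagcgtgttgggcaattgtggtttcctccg
Yju2: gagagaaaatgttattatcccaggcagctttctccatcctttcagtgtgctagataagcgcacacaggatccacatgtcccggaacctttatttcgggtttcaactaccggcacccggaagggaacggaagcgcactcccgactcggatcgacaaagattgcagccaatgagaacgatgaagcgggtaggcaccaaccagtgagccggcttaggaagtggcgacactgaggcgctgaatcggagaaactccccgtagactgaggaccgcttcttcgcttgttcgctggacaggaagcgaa
Zap70: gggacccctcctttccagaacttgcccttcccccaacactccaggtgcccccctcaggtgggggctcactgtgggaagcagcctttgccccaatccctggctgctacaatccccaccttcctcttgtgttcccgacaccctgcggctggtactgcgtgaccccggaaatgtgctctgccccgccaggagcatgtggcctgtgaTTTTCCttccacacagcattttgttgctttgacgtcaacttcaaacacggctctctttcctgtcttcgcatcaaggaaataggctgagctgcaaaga

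The NFAT1 lists held 4908 and 3435 peaks in IkE5 cells and 7825 and 6850 in WT cells, whereas the p300 lists held 11670 and 8971 in IkE5 cells and 11457 and 8775 in WT cells. A list gives positions only, without reads or heights, so the depth of each library is unknown and the number of peaks stands in for it. Both IkE5 NFAT1 lists were shorter than both WT lists, so a lost peak, a shallower or less enriched library and a smaller share of cells with NFAT1 on the site cannot be told apart. The cells carried Treg and T cell marks: all 8 marker genes, Foxp3, Il2ra, Ctla4 and Cd4 among them, had H3K27ac in every library, with a summed covered length of 198 to 242 kb in IkE5 and 159 to 235 kb in WT. Of 10 B cell markers, 4 or 5 had any H3K27ac in IkE5 and 5 to 7 in WT, summing to 3.49 to 4.50 kb and 6.34 to 7.95 kb, with Cr2 and Ms4a1 among those at 0 in all 4 libraries. Of 10 myeloid markers 4 or 5 had any in each genotype, summing to 5.20 to 5.51 kb in IkE5 and 6.08 to 9.87 kb in WT, with Lyz2, Csf1r and Adgre1 at 0 in all 4. Of 10 CD8 T and NK cell markers 3 or 4 had any in IkE5 and 4 or 5 in WT, summing to 2.00 to 3.31 kb and 3.14 to 3.57 kb, with Ncr1, Klrb1c and Gzma at 0 in all 4. The part of other cell types in the results was not tested.

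Among the 3805 NFAT1 regions that overlapped a p300 region of all 4 lists, 656 (17.2%) were the lost sites, against 19.4% WT only among all 11087 NFAT1 regions. These values chose the sites and are a description. At p300 regions of all 4 lists, 1642 NFAT1 regions (43.2%) were in all 4 NFAT1 lists, and these kept sites are the comparison used below. Just outside the rule lay 698 regions with both WT peaks and a peak in a single IkE5 list, 586 of them in IkE5 library 1 and 112 in IkE5 library 2. A further 210 regions had NFAT1 in WT library 1 only and 178 in WT library 2 only. The number of lost sites follows these lists: it was 1468 without IkE5 library 1, 1091 without IkE5 library 2, 861 without WT library 1 and 1037 without WT library 2.

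Most lost sites had no IkE5 NFAT1 peak close by, which the rule partly fixed by barring IkE5 NFAT1 peaks on the region itself. Only 18 of 656 had an IkE5 NFAT1 peak within 500 bp of the region, and 32 (4.88%) had the midpoint of joined IkE5 NFAT1 peaks within 2 kb. At 10 kb the number was 123 (18.8%) and at 50 kb 321 (48.9%). Runx1 was among the exceptions: the NFAT1 peaks of both IkE5 libraries lay beside its lost site, with their joined midpoint 0.612 kb from that of the site. At Batf the nearest joined IkE5 NFAT1 peaks lay 1.54 kb away. Other NFAT1 regions of WT only were alike or had such peaks nearby more often. At 2, 10 and 50 kb the shares were 4.0%, 18.4% and 48.4% for the 250 that overlapped a p300 region of WT only. They were 5.75%, 29.9% and 62.1% for the 174 that overlapped no p300 region.

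Because p300 peaks were joined first, a p300 region can reach a site without every library having a peak on the site itself. A p300 peak of all 4 libraries overlapped the NFAT1 region directly at 647 lost sites (98.6%) and at 99.6% of the kept sites. Over the midpoint of the lost sites p300 had a peak at 94.1% and 95.1% in IkE5 and at 98.2% and 97.4% in WT, and at 582 (88.7%) in all 4. At kept sites the midpoint shares were 99.0% and 98.5% in IkE5 and 99.4% and 99.0% in WT, with 96.9% in all 4. The midpoint of a lost site is set by WT NFAT1 peaks alone, whereas that of a kept site also counts IkE5 peaks, and the p300 lists were part of the rule, so nothing is read from the lower IkE5 shares. At Runx1 the p300 peak of IkE5 library 1 overlapped the site but ended short of its midpoint.

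Within the lost sites the midpoints of the NFAT1 and p300 peaks lay farther apart than at kept sites. In WT library 1 the median distance between the midpoints of the NFAT1 and the p300 peak was 44.0 bp at lost sites (quartiles 19.0 and 85.0 bp), 31.0 bp at sites with a single IkE5 peak and 24.0 bp at kept sites (quartiles 10.0 and 49.0 bp). WT library 2 gave 54.0, 44.0 and 33.0 bp in the same order. The 2 WT NFAT1 peaks of a site were likewise 45.0 bp apart at lost sites (median), 36.0 bp at sites with a single IkE5 peak and 25 bp at kept sites. The order was thus the same in all 3 measurements, which share peak lists that also chose the sets. At lost sites the 2 WT NFAT1 peaks lay about as far from each other as from p300. A looser fit of NFAT1 to p300 therefore cannot be told apart from scatter in the called peak positions. Regions of a genome are not replicates of a genotype, so these and the following differences between sets of sites are given without a test.

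Foxp3 stayed where NFAT1 was lost. A Foxp3 peak was present at 96.8% and 84.3% of the lost sites in the IkE5 libraries and at 98.9% and 83.1% in the WT libraries, or 90.5% ± 8.84 and 91.0% ± 11.2 (SD, n = 2 each). The genotypes overlapped, and the gap between library 1 and library 2 was larger than that between genotypes. At kept sites the shares were 98.1% and 65.6% in IkE5 and 99.3% and 59.1% in WT. Lost sites thus held Foxp3 more often than kept sites in library 2 of each genotype, and slightly less often in library 1. All 4 Foxp3 lists had a peak at 497 lost sites (75.8%), at 61.5% of the sites with a single IkE5 NFAT1 peak and at 53.6% of the kept sites. Only 1 lost site (0.152%) had Foxp3 in both WT and neither IkE5 list. The share was 0.244% of the kept sites and 1.84% of all NFAT1 regions with a Foxp3 peak. This lost site lay at chr4:136106714-136107250, 36.8 kb from the start of Id3, an inhibitor of E proteins. The reverse held for 1 lost site as well, against 0 kept sites and 1.75% of all NFAT1 regions with a Foxp3 peak. It lay at chr2:147012527-147013102, 0.184 kb from the start of Xrn2, a nuclear exonuclease gene. Both were singled out after their values were seen.

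Ikaros, in the WT cells in which it was mapped, occupied nearly all the lost sites. Its libraries had a peak at 99.2% and 93.9% of them, and 615 (93.8%) had it in both libraries and 4 in neither. At kept sites the shares were 98.9% and 76.1%, with 75.8% in both libraries, and at sites with a single IkE5 NFAT1 peak 99.4% and 83.8%. As with Foxp3, the sets of sites differed by far more in library 2 than in library 1. The Ikaros lists held 22297 and 26641 peaks, and the Foxp3 lists 21619 and 17265 in IkE5 and 20608 and 16526 in WT. Library 2 was thus the longer list for Ikaros and the shorter for Foxp3, and the part of list length was not tested. Sites over 1 kb from a gene start gave the same order in library 2, 93.1% at lost and 75.4% at kept sites for Ikaros, and for Foxp3 81.6% and 64.8% in IkE5 and 80.0% and 58.2% in WT.

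**Figure D1:**
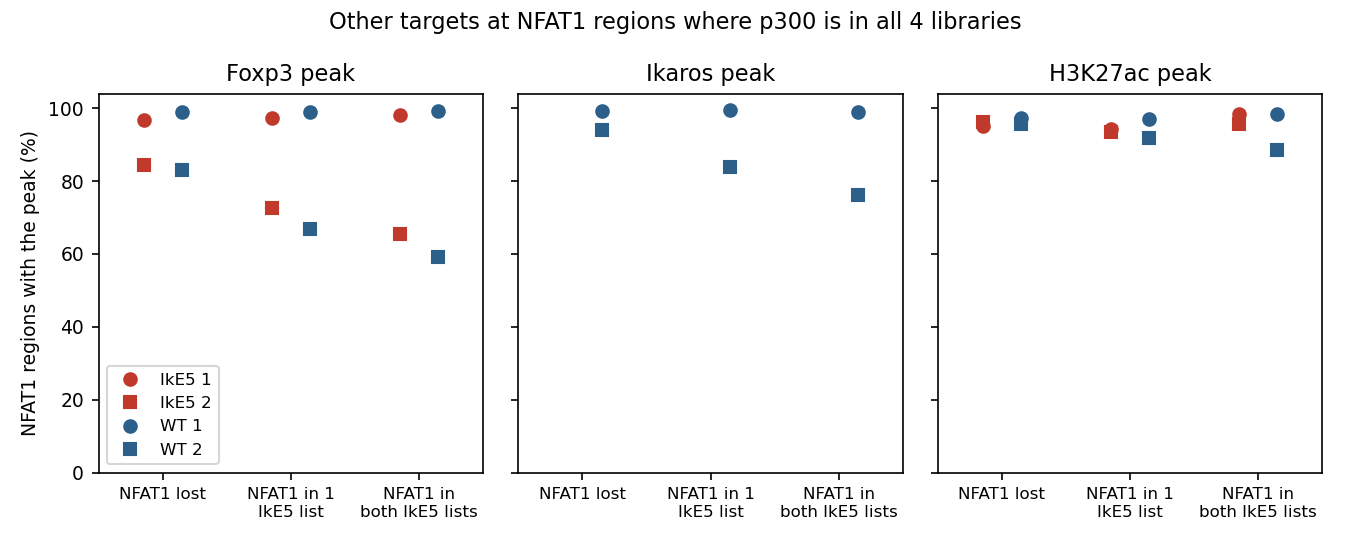
Share of NFAT1 regions (y axis, %) with a Foxp3, Ikaros or H3K27ac peak, at sites that lost NFAT1 in IkE5, sites with NFAT1 in a single IkE5 list and sites with NFAT1 in both IkE5 lists, all with p300 in 4 lists. Each point is a library (circles library 1, squares library 2); the Foxp3 and Ikaros squares are highest at the lost sites, and their circles lie between 96.8% and 99.4% in all 3 sets.

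H3K27ac was also present at most of the lost sites in both genotypes. Its peaks overlapped 95% and 96.2% of them in IkE5 and 97.4% and 95.6% in WT, or 95.6% ± 0.862 and 96.5% ± 1.29 (SD, n = 2 each), which overlap. All 4 lists had H3K27ac at 595 lost sites (90.7%) and at 86.7% of the kept sites. It was in WT only at 6 lost sites (0.915%), against 0.183% of the kept sites and 1.65% of all NFAT1 regions with H3K27ac. It was in IkE5 only at 2 lost sites (0.305%), against 0.305% of the kept sites and 1.99% of all NFAT1 regions with H3K27ac. In 460 lost sites (70.1%) every list of Foxp3, H3K27ac and Ikaros had a peak. This held for 49.8% of the kept sites and 32.0% of all NFAT1 regions.

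Sites that lost NFAT1 together with p300 had lower shares in IkE5. At the 250 NFAT1 regions of WT only that overlapped a p300 region of WT only, Foxp3 was present at 59.2% and 48.4% in IkE5 and at 93.6% and 58.8% in WT, and 8.80% had Foxp3 in WT only. H3K27ac overlapped 78.4% and 76.8% of them in IkE5 and 92.0% and 84.4% in WT. For both targets each IkE5 library lay below the WT library of the same number. The genotypes overlapped for Foxp3 and not for H3K27ac, and the difference from the lost sites with p300 was not tested.

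Acetylated stretches around the lost sites were shorter than at kept sites and close to those over all NFAT1 regions. In the window of 5 kb on each side of the midpoint, the median covered length was 2.88 and 2.85 kb in IkE5 and 3.6 and 2.67 kb in WT, and the genotypes overlapped. At kept sites it was 5.15 and 4.01 kb in IkE5 and 5.65 and 3.15 kb in WT, and over all NFAT1 regions 3.28 and 2.87 kb in IkE5 and 3.64 and 2.42 kb in WT. The whole H3K27ac lists covered 72.9 and 62.1 Mb in IkE5 and 79.6 and 54.6 Mb in WT, and covered length was scaled to these totals before testing. After scaling, the medians at lost sites were 2.66 and 3.09 kb in IkE5 and 3.05 and 3.29 kb in WT. They overlap between genotypes, although each IkE5 value lay below the WT value of the same number.

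**Figure D2:**
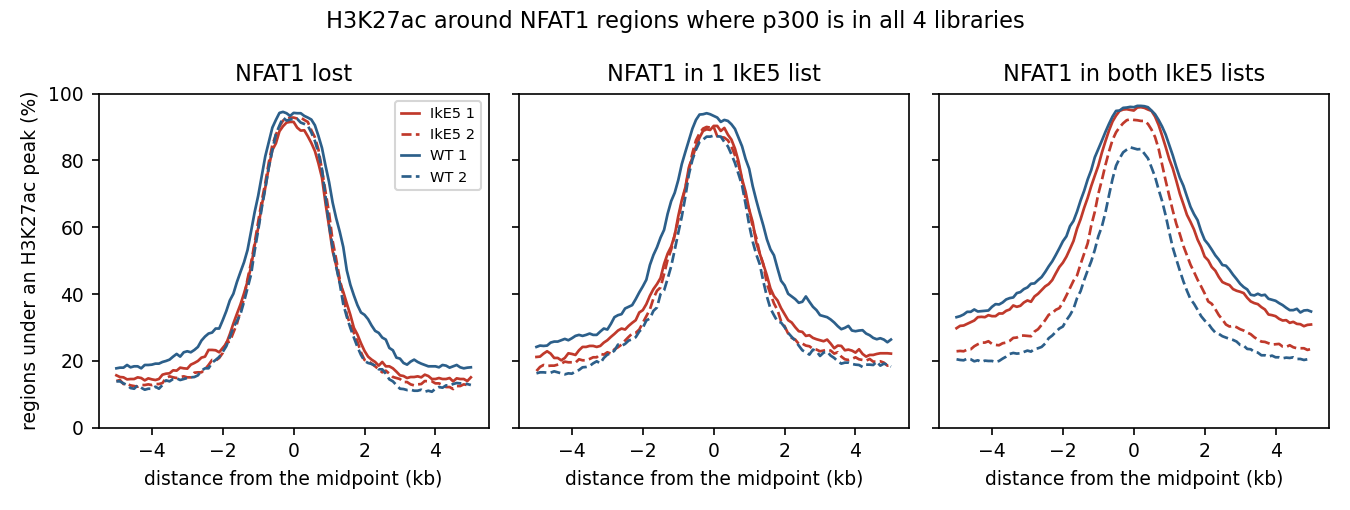
Share of sites lying under an H3K27ac peak (y axis, %) by distance from the midpoint of the NFAT1 region (x axis, kb), for each library. At lost sites the 4 libraries run close together, from 91.5% to 94.2% at the midpoint, and fall to between 12.8% and 18.1% at 5 kb after it; at kept sites WT library 2 lies lowest, with 83.6% at the midpoint.

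The scaled covered length was compared between genotypes with limma in 1 fit over the windows of all NFAT1 regions with a mean of at least 1000 bp, on log2(covered bp + 500), which understates changes of short coverage. Of 656 lost sites 625 met this filter, and 0 passed a limma adjusted p of 0.05 in either direction, as did 0 of all 9696 windows (0% called). The smallest limma adjusted p of a lost site was 0.213. At an unadjusted limma p under 0.05 there were 40 lost sites (6.40%), 10 higher and 30 lower in IkE5, against 10.4% of all windows. The median log2 difference, IkE5 over WT, was -0.10 over the lost sites (quartiles -0.33 and 0.09), 0.03 over the kept sites and -0.02 over all windows. That of the lost sites depended on single libraries: it was 0.01 without WT library 2 and -0.25 without WT library 1. The median over all windows moved in the same directions, to 0.07 and -0.10. Calls also rested on single libraries. Without WT library 1, limma called 10 lost sites higher and 9 lower, and 670 and 169 of all windows. Without IkE5 library 1 it called 0 lost sites higher and 2 lower, and 52 and 51 of all windows, and without IkE5 library 2 it called 2 windows lower, neither a lost site. Neighbouring windows overlap and are not independent.

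The lost sites with the 5 lowest and the 5 highest log2 differences in H3K27ac are described here, a number set by the naming rule. At chrX:113867765-113868311, with no gene within 10 kb, the window held 1.19 and 0.900 kb of H3K27ac in IkE5 and 5.80 and 3.24 kb in WT, a log2 difference of -1.68 ± 0.26 (SE, limma adjusted p = 0.213). Beside Tns4 (chr11:99098878-99099396), a tensin gene, the window held 0 in both IkE5 libraries and 3.95 and 1.48 kb in WT (log2 difference -2.58). A site near Ms4a4a (chr19:11395670-11396182) had 0 in both IkE5 libraries and 2.21 and 1.97 kb in WT (log2 difference -2.40). In the other direction, a site lay 17.3 kb before the start of Tnfrsf19 (chr14:61063836-61064375), a receptor gene of the tumour necrosis factor family. It had 3.36 and 3.59 kb in IkE5 and 0.500 and 0 kb in WT (log2 difference 2.55, limma adjusted p = 0.231). The genotypes did not overlap at these 4 sites, and none passed the test with all libraries. The first passed without IkE5 library 1 (limma adjusted p = 0.0185) and without WT library 1 (0.0433), and the Tnfrsf19 site without WT library 1 (limma adjusted p = 0.000856). A site 191 kb from the start of Runx1 with no gene within 10 kb (chr16:93016917-93017432) had 0.500 and 0 kb in IkE5 and 4.20 and 0.886 kb in WT (log2 difference -1.87). In Mfhas1 the values were 0 and 3.86 kb in IkE5 and 5.22 and 4.54 kb in WT (log2 difference -1.84). The site at Cabp1, a calcium-binding protein gene, had 2.20 and 1.83 kb in IkE5 and 1.23 and 0 kb in WT (log2 difference 1.52), again without overlap. At Osbpl9, at a site 243 kb from Agr3 and near Itpkb, a kinase gene of inositol phosphate signalling, the genotypes overlapped (log2 differences 1.31, 1.29 and 1.29). Without WT library 1, the Osbpl9 and Itpkb sites passed as higher (limma adjusted p = 0.0289 and 8.66e-05).

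Lost sites lay at gene starts more often than kept sites. Of the 638 lost sites on chromosomes with gene starts in the table used, 187 (29.3%) had their midpoint within 1 kb of the start of a protein-coding gene, against 17.7% of the sites with a single IkE5 peak, 12.9% of the kept sites and 20.6% of all NFAT1 regions. With lost sites defined without IkE5 library 1 the share within 1 kb was 23.1%, nearer to that of all NFAT1 regions, and without IkE5 library 2 it was 28.2%. The median distance to a start was 15.7 kb at lost sites, 22.5 kb at sites with a single IkE5 peak and 29.0 kb at kept sites. Most lost sites were nonetheless distal, with 57.4% over 10 kb from a start, against 71.6% of kept sites and 62.6% of all NFAT1 regions. Within 2 kb of either end of a gene lay 37.0% of the lost sites, 19.9% of the kept sites and 28.5% of all NFAT1 regions. In a gene lay 62.5% of the lost sites, close to the 61.2% of all NFAT1 regions, and 54.1% of the kept sites.

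Sequence was at hand for promoter windows only, so motifs were counted where a window of 300 bases overlapped the region by at least 150 bp. This held 137 windows for the lost sites, 82 for sites with a single IkE5 peak and 100 for kept sites. The NFAT motif GGAAAA, searched on both strands like every motif here, was found in 35 windows of lost sites (25.5%, exact 95% Clopper-Pearson interval 18.5 to 33.7%). It was found in 40.2% of the windows of sites with a single IkE5 peak (29.6 to 51.7%) and in 42 windows of kept sites (42.0%, 32.2 to 52.3%). All 21262 promoter windows of protein-coding genes held it at 22.3%, and those at any NFAT1 region at 32.2%. The interval of the lost sites contains both the share of all promoters and that of promoters at any NFAT1 region, and overlaps that of the kept sites at its edge. It covers counting error over windows and no spread between libraries.

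In percentage points the other motifs differed less between lost and kept sites, though AP-1 differed more as a ratio. The Ets motif CCGGAAG, common at promoters of widely expressed genes, was in 32.1% of lost, 27% of kept and 11.6% of all windows. The Ikaros core TGGGAA was in 23.4%, 25% and 24.5%, and 2 windows of lost sites held an NFAT match that overlapped an Ikaros match. AP-1 (TGANTCA) was in 5.11%, 11% and 6.99%, the Runx motif TGTGGTT in 8.03%, 11% and 4.71%, and the forkhead motif TGTTTAC in 3.65%, 5.00% and 3.01%. Windows of lost sites had a median GC content of 58.7% and 21.0 CpG dinucleotides, against 56.7% and 19.0 at kept sites and 56.3% and 13.0 over all promoters. Among the printed promoters, Runx1 has 2 matches to the Runx motif, and Batf and Tnfsf14 have 1 each.

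**Figure D3:**
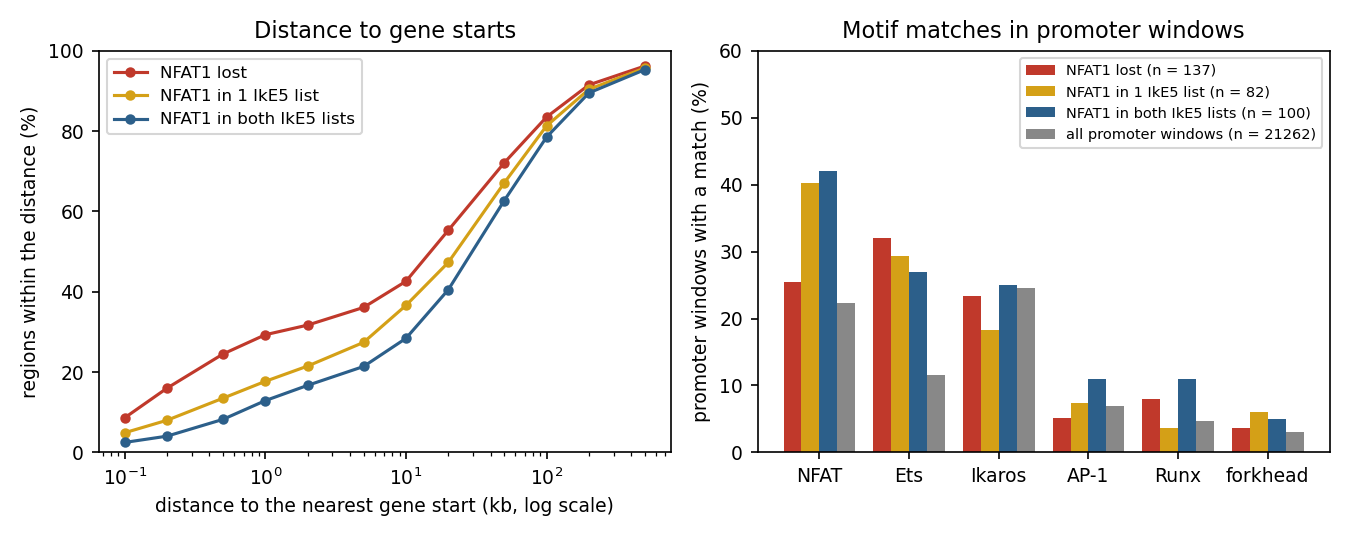
Left, the share of sites (y axis, %) within a given distance of a gene start (x axis, kb, log scale), with lost sites highest at every distance drawn and 29.3% of them within 1 kb. Right, the share of 300-base promoter windows (y axis, %) with a match to each motif, where the NFAT core was in 25.5% of windows at lost sites and 42.0% at kept sites, and grey bars show all promoters.

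In or within 10 kb of 673 protein-coding genes lay at least 1 lost site, 10.5% of the 6423 genes with any NFAT1 region, and 153 lost sites had no gene within 10 kb. A kept site was also found at 97 of the 673 genes (14.4%), near the 17.7% of all genes with an NFAT1 region. Of 13 lists with 242 genes of Treg cells, calcium signalling and other programmes, 173 had an NFAT1 region and 15 of them (8.67%) a lost site, whereas 72 (41.6%) had a kept site, against 10.5% and 17.7% of all genes with an NFAT1 region. The lists thus held lost sites about as often as other genes. Effector cytokine genes had a lost site at 0 of 14 and a kept site at 5, and co-inhibitory genes had 2 of 17 and 14.

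Calcium and receptor signalling genes upstream of NFAT had 2 of 25 with a lost site and 11 with a kept site. Stim1 (chr7:102337802-102338377, in the gene), which encodes the endoplasmic reticulum calcium sensor, lost 1 of its 3 NFAT1 regions and kept 1 in all 4 lists. Cblb (chr16:52081663-52082201), a co-inhibitory gene that encodes a ubiquitin ligase restraining T cell receptor signalling, had 1 lost and 2 kept sites among 13 NFAT1 regions. H3K27ac around the Cblb site covered 6.81 and 5.55 kb in IkE5 and 8.21 and 7.92 kb in WT, without overlap (limma adjusted p = 0.647). Around the Stim1 site it covered 2.88 and 3.33 kb in IkE5 and 2.99 and 4.01 kb in WT, which overlap.

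Partners of Foxp3 and NFAT had a lost site at 5 of 25 genes, and 11 had a kept site. Besides Runx1 (chr16:92825977-92826564) and Batf (chr12:85686326-85686865), whose lost sites lay 0.197 and 0.124 kb before their starts, these were Elf1, Crebbp and Mef2d. Elf1 (chr14:79537298-79537823) encodes an Ets factor, and its site lay 21.9 kb into the gene. The Crebbp site (chr16:4077605-4078152) lay 0.069 kb before the start of Trap1. Mef2d (chr3:88177566-88178285) encodes a calcium-regulated factor. At Runx1 the window held 5.52 and 5.54 kb of H3K27ac in IkE5 and 7.15 and 7.03 kb in WT (log2 difference -0.36 ± 0.25, limma adjusted p = 0.709). At Batf it held 7.73 and 5.04 kb in IkE5 and 8.06 and 3.30 kb in WT, which overlap.

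In the Treg signature 3 of 23 genes held a lost site and 15 a kept one. Entpd1 (chr19:40707971-40708941) encodes the ectonucleotidase CD39, Ikzf4 (chr10:128636820-128637556) the Ikaros relative Eos, and Il2rb (chr15:78475548-78476058) the beta chain of the interleukin 2 receptor. H3K27ac at the Entpd1 site covered 4.35 and 1.79 kb in IkE5 and 1.84 and 1.73 kb in WT, which overlap. Ikzf4 had 6.21 and 6.39 kb in IkE5 and 7.60 and 6.97 kb in WT (limma adjusted p = 0.869). At Il2rb the values were 6.82 and 6.24 kb in IkE5 and 6.72 and 6.35 kb in WT. The single naive and quiescence gene with a lost site, of 18, was Il7r (chr15:9533234-9533762), the interleukin 7 receptor gene, 3.62 kb before its start. It had 7.80 and 7.92 kb in IkE5 and 7.81 and 7.64 kb in WT.

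Of 30 activation-induced genes 3 had a lost site, namely Batf, Dusp5 (chr19:53519769-53520303), which encodes a phosphatase of the kinase ERK, and Cd44 (chr2:102873760-102874334), an adhesion receptor gene of activated T cells. Dusp5 had 2.03 and 2.26 kb of H3K27ac in IkE5 and 2.75 and 3.48 kb in WT (limma adjusted p = 0.701). A lost site at the start of Cr1l (chr1:195131141-195131700) fell within 10 kb of Cr2, a complement receptor gene listed as a B cell marker. Each of the 15 sites at genes of the lists had Foxp3 in all 4 lists, H3K27ac in all 4 and Ikaros in both. This held for 70.1% of all lost sites and 32.0% of all NFAT1 regions.

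Of the 673 genes with a lost site, 20 held 2 or more and 3 held 3, and kept sites were not counted in this way. Ski encodes a corepressor of transforming growth factor beta signalling, Kmt2d a methyltransferase of enhancer histones, and Iffo2 is the third. In or within 10 kb of each of these genes all 3 NFAT1 regions were lost sites. Among the sites at these 3 genes, 2 Ski sites had the largest differences in H3K27ac. At chr4:155162395-155162970 the window held 3.31 and 3.6 kb in IkE5 and 6.06 and 6.26 kb in WT, a log2 difference of -0.78 ± 0.28 (SE, limma adjusted p = 0.411). At chr4:155178253-155178789 it held 4.38 and 4.89 kb in IkE5 and 6.76 and 6.84 kb in WT (-0.54 ± 0.28, limma adjusted p = 0.569). The genotypes did not overlap at either site, and neither passed the test with all libraries. The first passed without WT library 1, at -1.06 (limma adjusted p = 0.0465). The third site of Ski (chr4:155200862-155201418) had 7.92 and 7.66 kb in IkE5 and 9.15 and 8.25 kb in WT, a log2 difference of -0.18. The Kmt2d site at the start of Prkag1 (chr15:98831162-98831879) had 3.78 and 3.29 kb in IkE5 and 4.58 and 3.82 kb in WT (-0.24). One Kmt2d site (chr15:98871823-98872359, 0.886 kb before its start) had 5.36 and 4.64 kb in IkE5 and 5.49 and 5.40 kb in WT, and an Iffo2 site (chr4:139578832-139579481) 7.25 and 6.71 kb in IkE5 and 6.69 and 5.49 kb in WT.

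**Figure D4:**
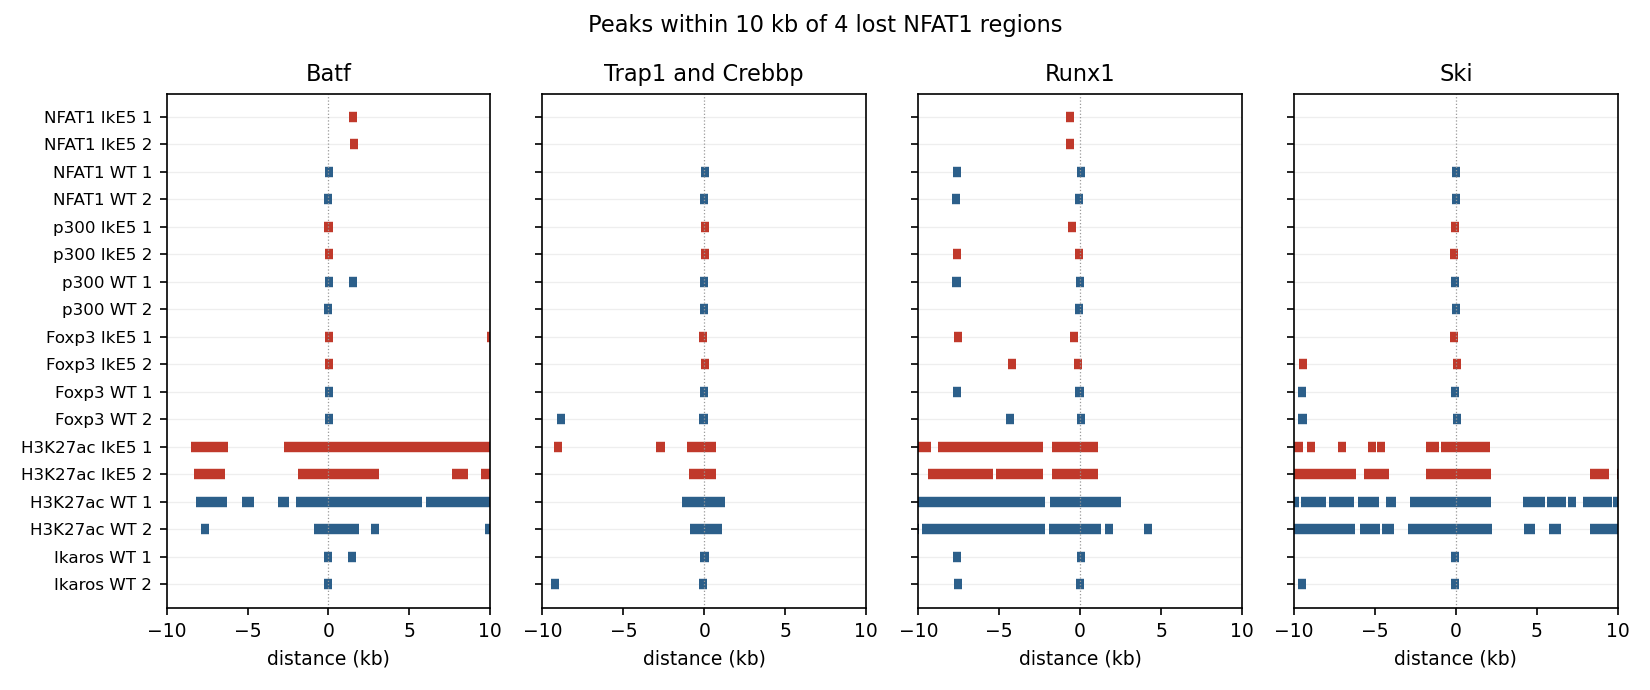
Peaks of each library (rows, IkE5 red and WT blue) within 10 kb of the midpoint of 4 lost NFAT1 regions (x axis, distance in kb), drawn as bars of their deposited width. At each midpoint NFAT1 has a bar in both WT rows and in no IkE5 row. At Batf, Ski and the Trap1 and Crebbp site p300 and Foxp3 have bars there in all 4 rows, whereas at Runx1 the p300 and Foxp3 bars of IkE5 library 1 miss the midpoint and the IkE5 bars of NFAT1 lie beside it.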

How the data were processed

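Peak lists of 18 libraries were used. They were deposited for each library separately and hold chromosome, start and end, with no score, height or count. Per the submitters' processing notes FastQC, Bowtie2, MACS2, bedtools and HOMER were used on mm10. The sources used here do not say which of these made the lists, nor with what threshold and input.

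Overlaps were computed in Python 3.11.15 with pandas 2.3.3, as in the report. Genes and starts were from RefSeq GRCm38.p6, the assembly of mm10. H3K27ac covered length was tested with limma 3.58.1 in R 4.3.3 (trended prior, Benjamini-Hochberg adjustment, filter of 1000 bp, pseudocount of 500 bp), and the script was tested on simulated data. Shares were not tested, since an exact permutation test of 2 against 2 cannot go below 0.333. P-values reflect only how these libraries vary, which may be technical. No 2 lists shared more than 0.745% of identical intervals. The sites, gene lists, motifs and comparisons were chosen with earlier results of these data known. Genes were named when a lost site lay in or within 10 kb of a list gene, when a gene held 3 or more, or for the 5 lowest and 5 highest log2 differences in H3K27ac. Alternatives covered the definition of lost sites, overlap, windows, scaling, pseudocount, filter, the replicate block and single libraries left out. Some items are not reported here.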

Additional observations from a re-analysis of the deposited data

How the results depend on the processing

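The number of lost sites was 655 with an overlap of at least 250 bp with p300 and 638 when IkE5 NFAT1 peaks within 500 bp counted as present. It was 1222 with p300 in at least 3 of 4 libraries, 1824 within number 1 and 1782 within number 2, and 861 to 1468 with a library left out. With the lost sites defined without an IkE5 library (chosen after seeing the data), the shares with H3K27ac were 92.3% to 94.8% in IkE5 and 94.9% to 95.5% in WT. With this definition 31.8% to 36.6% lay within 2 kb of a gene end and 23.1% to 28.2% within 1 kb of a gene start, and the NFAT core was in 29.4% to 31.5% of windows. H3K27ac lay over the midpoint at 92.1% in IkE5 and 93.3% in WT, and over 2 kb from a gene end it was at 93.2% and 94.8%. Within 1 kb of a gene end lay 32.3% and within 5 kb 44.5%. Of the list genes, 9 had a lost site in the gene and 33 within 50 kb. Foxp3 and Ikaros shares moved by less than 1 SD under every alternative run for them, but that SD is of 2 libraries and wide. The mean Foxp3 share fell from 90.5% (SD 8.84) to as low as 85.2% in IkE5 and from 91.0% (SD 11.2) to 86.3% in WT. The mean Ikaros share fell from 96.6% (SD 3.77) to as low as 93.3%. The count of 0 limma calls held under each pseudocount, filter, window and scaling run. The replicate block gave 0 calls among lost sites and 0 among all windows. Numbers are not stated to mark a shared animal, and same-numbered libraries deviated from their group means with a correlation of 0.59 over 9696 windows. Leaving out a library, which assumes that the lone library varies like the other group, gave 0 to 10 lost sites called higher and 0 to 9 lower, and 0 to 670 and 0 to 169 of all windows. The largest counts were without WT library 1, and the cause was not tested. The median log2 difference of lost sites was then -0.25 to 0.01, and that of all windows -0.10 to 0.07. The whole-region motif search was not run, because no genome was used here. List length limits every call of a lost peak.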
